A study of Mus musculus with 84 samples.

Results

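The genes described here are 43 protein-coding genes of the lysosome, taken as a fixed list from 21851 protein-coding genes, and their promoters were followed across 4 histone marks in fat cells of lean, obese and formerly obese mice. They fall into 7 groups by role: 13 proteases, 9 enzymes that digest carbohydrate chains, 6 genes of lipid and sphingolipid handling, 2 acid phosphatases, 4 parts of the proton pump, 6 membrane proteins and channels, and 3 transcription factors. The rule uses no measured value, but the list was drawn up with earlier results of these data known. A promoter was the stretch from 2000 bp before to 2000 bp after each transcription start site (TSS), with the sites of a gene merged, so that a gene with 1 site had a window of 4001 bp. The values are base pairs of that window covered by peaks, written below as covered bp.

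The lysosome is the acidic compartment in which cells break down proteins, glycans, lipids and worn-out organelles, and a proton pump, the V-ATPase, keeps it acid. In fat cells it takes part in lipid droplet turnover and autophagy, and in adipose tissue macrophages it digests lipid taken up from dying fat cells. The MiT/TFE transcription factors TFEB, TFE3 and MITF switch on many lysosomal genes together, by binding a short promoter motif with CACGTG at its core, called the CLEAR element.

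Nuclei came from epididymal fat of AdipoERCre x NuTRAP mice, in which a tamoxifen-inducible Cre under an adipocyte promoter tags the nuclei of mature adipocytes, and all mice of all groups received tamoxifen before any diet began. Tagged nuclei were captured on beads. CUT&Tag uses antibodies to bring a DNA-cutting transposase to a histone mark, so that DNA near the mark is sequenced. H3K4me3 marks active promoters, H3K27ac active promoters and enhancers, H3K4me1 enhancers, and H3K27me3 genes silenced by polycomb. In the 12-week cohort, C mice (18 weeks old, chow) were set against H mice (18 weeks old, 12 weeks of high-fat diet), and CC_s mice (26 weeks old, chow) against HC mice (26 weeks old, 12 weeks of high-fat diet and then 8 weeks of chow). In the 25-week cohort, CC_l mice (31 weeks old, chow) were set against HH mice (31 weeks old, 25 weeks of high-fat diet), and CCC mice (39 weeks old, chow) against HHC mice (39 weeks old, 25 weeks of high-fat diet and then 8 weeks of chow). The labels call the replicates biological and do not name the mice. The paper describes assaying the marks on nuclei taken from one and the same fat depot. Results of different marks are therefore not independent of each other. H and HH are called obese and HC and HHC weight loss (WL) in what follows.

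There were 84 libraries, 21 for H3K4me3, 21 for H3K27ac, 22 for H3K4me1 and 20 for H3K27me3, in 20 groups of 3 and 12 groups of 2. Each holds 11249 to 46397 peaks, and the peak lists carry no read totals. The cohorts differed in how much was called: H3K4me1 peaks covered 16.2 to 61.1 Mb in libraries of the 12-week cohort and 58.3 to 133 Mb in those of the 25-week cohort. H3K27ac CCC replicate 3 stood apart, with 14917 peaks and 17.7% of all promoters marked, against 50.8% in CCC replicate 1, and H3K4me3 H replicate 3 held the fewest peaks. For 4 H3K4me3 libraries of the 25-week cohort the treatment field names another group than the title. Titles were used, and H3K4me3 comparisons with CC_l, HH or CCC depend on this choice. Of 12 adipocyte marker promoters, 9 to 12 carried H3K4me3 and 9 to 12 carried H3K27ac in each library. Markers of other cells also had peaks: of 20 macrophage marker promoters, 0 to 19 carried H3K4me3, and of 10 lymphocyte marker promoters, 0 to 10. In bulk libraries, fewer marked cells and less of the mark per cell cannot be told apart.

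The promoters that carry the main differences below are shown first, as the 250 bp before a RefSeq TSS (build GRCm38.p6), written 5′ to 3′ in the direction of the gene. CACGTG is in capitals. They are Ctsa (chr2:164833523-164833772, plus strand), Ctsd (chr7:142387828-142388077, minus strand), Lgmn (chr12:102439093-102439342, minus strand), Sgsh (chr11:119355511-119355760, minus strand), Gusb (chr5:130003050-130003299, minus strand) and Ctss (chr3:95526536-95526785, plus strand).
Ctsa: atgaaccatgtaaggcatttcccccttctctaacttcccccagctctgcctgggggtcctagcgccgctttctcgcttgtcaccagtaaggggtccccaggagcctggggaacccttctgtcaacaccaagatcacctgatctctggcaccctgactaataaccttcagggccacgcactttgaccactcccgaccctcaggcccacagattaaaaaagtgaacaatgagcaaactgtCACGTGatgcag
Ctsd: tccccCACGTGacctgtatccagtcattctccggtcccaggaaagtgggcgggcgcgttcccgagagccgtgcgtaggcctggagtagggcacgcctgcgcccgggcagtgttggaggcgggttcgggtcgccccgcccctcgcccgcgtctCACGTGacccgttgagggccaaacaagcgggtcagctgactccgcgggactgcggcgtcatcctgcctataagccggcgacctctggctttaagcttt
Lgmn: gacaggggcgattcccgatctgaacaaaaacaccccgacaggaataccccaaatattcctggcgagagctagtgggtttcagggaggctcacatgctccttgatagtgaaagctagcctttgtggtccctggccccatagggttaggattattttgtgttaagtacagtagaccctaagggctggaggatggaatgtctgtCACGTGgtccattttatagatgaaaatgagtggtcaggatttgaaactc
Sgsh: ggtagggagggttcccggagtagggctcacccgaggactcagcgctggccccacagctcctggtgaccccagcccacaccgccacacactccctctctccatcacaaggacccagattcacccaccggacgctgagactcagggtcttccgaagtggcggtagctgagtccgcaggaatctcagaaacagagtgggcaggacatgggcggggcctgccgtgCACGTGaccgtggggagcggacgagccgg
Gusb: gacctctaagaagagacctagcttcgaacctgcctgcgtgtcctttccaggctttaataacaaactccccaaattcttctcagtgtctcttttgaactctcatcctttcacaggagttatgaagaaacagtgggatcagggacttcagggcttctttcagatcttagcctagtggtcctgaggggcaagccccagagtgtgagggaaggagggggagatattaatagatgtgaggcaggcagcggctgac
Ctss: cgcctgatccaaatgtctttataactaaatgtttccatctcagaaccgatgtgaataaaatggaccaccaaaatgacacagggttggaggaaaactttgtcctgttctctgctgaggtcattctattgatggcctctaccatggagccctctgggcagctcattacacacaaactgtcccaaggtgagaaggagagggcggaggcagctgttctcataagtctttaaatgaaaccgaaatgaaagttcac
The motif begins 12 bp before the TSS in Ctsa, 245 and 98 bp before it in Ctsd, 49 bp before it in Lgmn and 29 bp before it in Sgsh. Gusb and Ctss have no CACGTG in these 250 bp. RefSeq lists 2 promoters each for Ctsa and Lgmn. The one with more copies of CACGTG was printed, and the other holds 0.

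RefSeq promoters of 300 bp (250 bp before to 50 bp after a TSS) matched 38 of the 43 genes by symbol, and Ctsb, Ctsh, Npc1, Asah1 and Atp6v0d2 had no entry. CACGTG, which reads the same on both strands, was found in 14 of the 38 genes (36.8%) and in 1516 of 16515 protein-coding genes (9.18%). The 14 were Ctsa, Ctsd, Ctsf, Ctsl, Lgmn, Gaa, Gla, Glb1, Sgsh, Atp6v0d1, Atp6v1a, Lamp1, Mcoln1 and Cln3. The longer palindrome TCACGTGA, which contains it, was found in 7 of the 38 (18.4%), against 239 of all genes (1.45%): Ctsa, Ctsd, Gla, Atp6v0d1, Atp6v1a, Mcoln1 and Cln3. A match is a run of letters and not a measured binding site.

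Most lysosomal promoters carried H3K4me3 whatever the diet, and fewer carried H3K27ac in each library. H3K4me3 was present in each of the 21 libraries at 34 of the 43 promoters (79.1%), against 39.2% of all protein-coding promoters, and no lysosomal promoter lacked it throughout, against 27.2% of all. H3K27ac was present in each library at 11 promoters (25.6%, against 8.67% of all): the cathepsin genes Ctsb, Ctsc, Ctsd and Ctsl, the lipid genes Lipa, Npc2, Psap and Smpd1, the acid phosphatase Acp2, the proton pump ATPase subunit Atp6v1a and the membrane protein Scarb2. H3K4me1 was present in each of 22 libraries at 1 promoter, that of Psap (2.33%, against 1.57% of all), which encodes the precursor of the saposins that help enzymes to digest sphingolipids. H3K27me3 was absent from 33 promoters in all 20 libraries (76.7%, against 52.3% of all) and present in each library at none (4.02% of all).

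**Figure D1:**
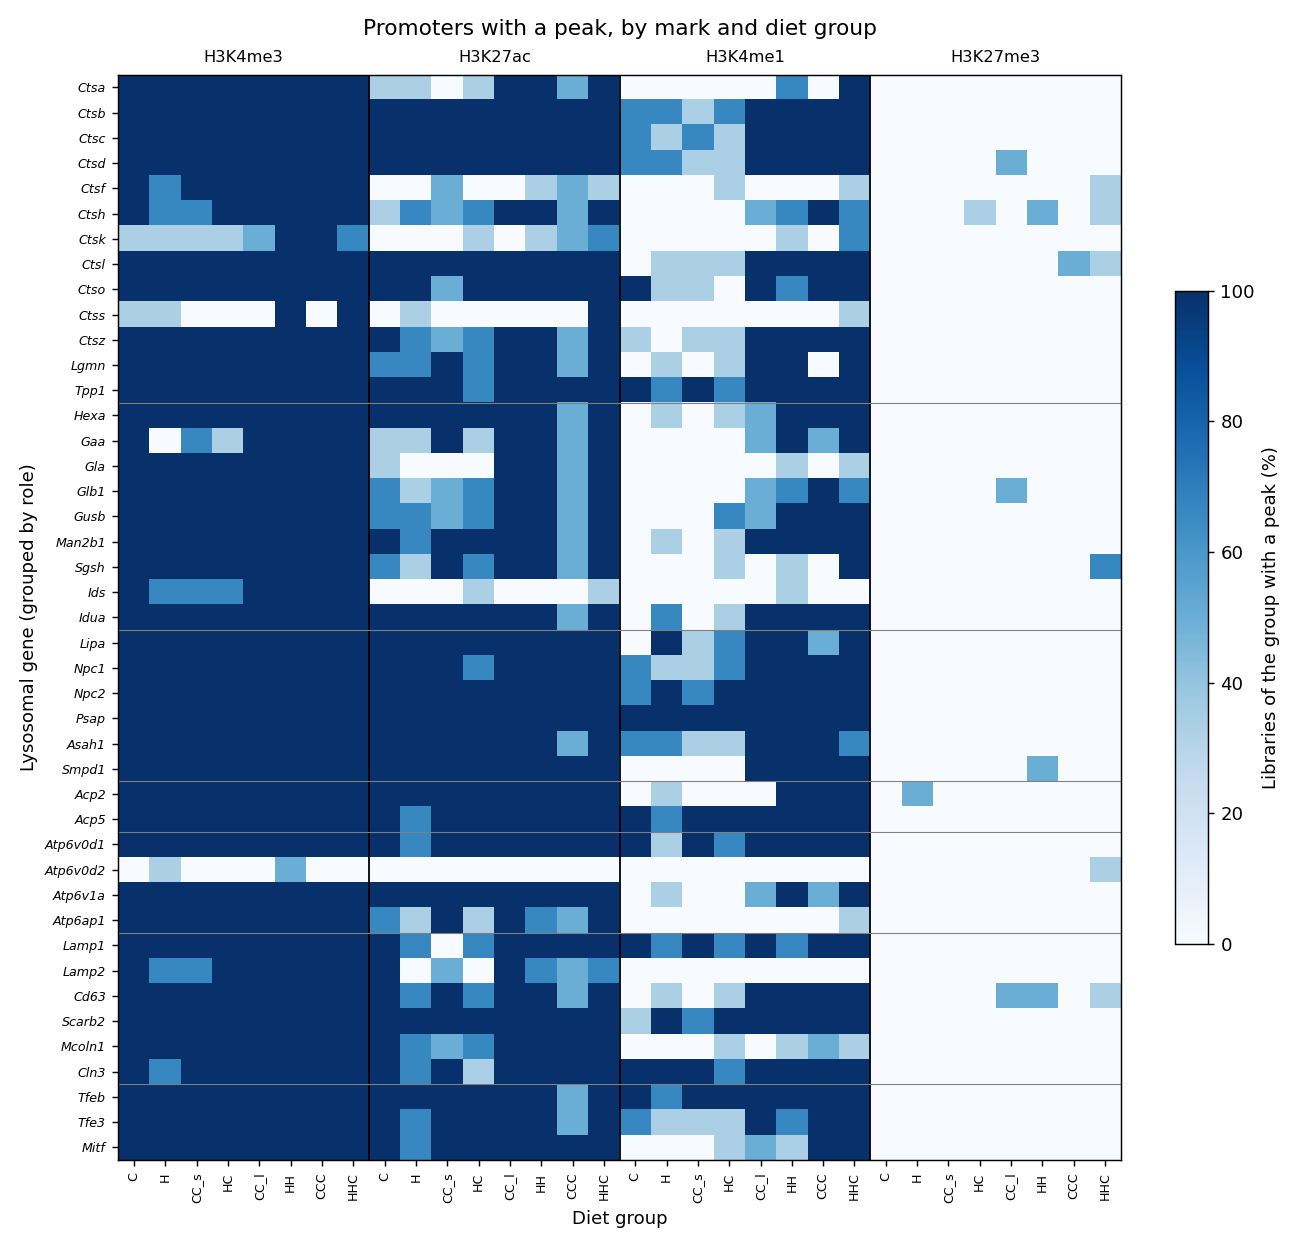
Each row is a lysosomal gene, grouped by role between the grey lines, and each column a diet group within a mark; the colour gives the share of the group's 2 or 3 libraries with a peak in the promoter window, in percent. H3K4me3 fills nearly all of its block, H3K4me1 is fuller in the 4 groups of the 25-week cohort than in the 12-week cohort, and H3K27me3 is almost empty.

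Covered widths were larger at these promoters than at other promoters too. Within a library, the mean covered bp of the lysosomal promoters tested was 1.15 to 1.52 times that of all promoters tested for H3K4me3, 1.25 to 1.74 times for H3K27ac and 1.41 to 2.39 times for H3K4me1. The median H3K4me3 width over libraries with a peak ran from 656 bp at Atp6v0d2 and 917 bp at Ids to 5344 bp at Psap and 5394 bp at Idua, and the last 2 have windows of 8003 and 8207 bp. These are descriptions with no test, and windows with several start sites have more base pairs to cover.

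The 9 genes that lacked H3K4me3 somewhere were of different kinds. Atp6v0d2, a proton pump subunit known from osteoclasts and macrophages, had a peak in 2 libraries, H replicate 2 with 435 bp and HH replicate 2 with 877 bp, and no H3K27ac or H3K4me1 peak in any library. Ctsk, a collagen-digesting cathepsin, had a peak in 11 of 21, in 1 library of each of C, H, CC_s, HC and CC_l, in both HH and both CCC libraries, and in 2 of 3 HHC libraries. HH (2172 and 2642 bp) lay above CC_l (0 and 1638 bp), HHC (0, 1716 and 1761 bp) lay below CCC (1989 and 2070 bp), and the 12-week groups overlapped. Ctsf, Ctsh, Ids, Cln3 and Lamp2 had H3K4me3 in 18 to 20 libraries, and the libraries without it were all of the 12-week cohort. H3K4me3 H replicate 3, the library with the fewest peaks, lacked a peak at all 5 of these genes. The other 2 genes, Ctss and Gaa, differed between diets and are described next.

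Ctss encodes cathepsin S, a protease that antigen-presenting cells use to process the invariant chain of MHC class II. Its H3K4me3 width was 0, 0 and 1259 bp in C, 0, 2183 and 0 bp in H, and 0 bp in each CC_s, HC, CC_l and CCC library. It was 1595 and 3259 bp in HH and 2634, 1863 and 2294 bp in HHC. In the 25-week cohort the peak was thus present in each obese and WL library and in no control, while in the 12-week cohort the groups overlapped. HHC exceeded CCC by 2264 bp (SE 551, adjusted p = 0.02, limma), and HH exceeded CC_l by 2427 bp (SE 604, adjusted p = 0.0504). The HHC call was lost when any of 3 libraries was left out (adjusted p up to 0.163, without CCC replicate 3) and with widths scaled to the library mean (1632 bp, adjusted p = 0.255).

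H3K27ac at Ctss was present in 4 libraries, in HHC with 2662, 2599 and 2616 bp and in H replicate 2 with 494 bp. The 3 HHC libraries were close to each other, and each of the other 17 libraries had no peak. The promoter met the filter of 3 libraries with a peak only through HHC, the group where it is high. WL exceeded control by 1313 bp over both cohorts (SE 236, adjusted p = 0.0242, limma, and 0.00371 without the filter), of which HHC against CCC contributed 2626 bp (SE 334, adjusted p = 0.00039) and HC against CC_s 0 bp. Leaving out each of 8 libraries, all of the 12-week cohort, raised the adjusted p of the WL comparison above 0.05 (to at most 0.234), whereas HHC against CCC kept a call without each of the 21 libraries in turn. Scaled to the library mean, the HHC difference was 1544 bp (adjusted p = 0.0849). The fit takes 1 spread per gene from all 8 groups, and groups at 0 bp throughout lower it. An exact test that permutes labels within each cohort gave p = 0.1 before adjustment for WL. H3K4me1 at Ctss was present in HHC replicate 1 alone, with 2073 bp.

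Libraries with a peak at Ctss tended to have more macrophage marker promoters marked, with overlap. The 7 libraries with H3K4me3 at Ctss had H3K4me3 at 7 to 19 of the 20 macrophage markers (median 17), and the 14 without it at 0 to 16 (median 4). The 4 libraries with H3K27ac at Ctss had H3K27ac at 7 to 19 markers (median 9.5), and the 17 without it at 0 to 15 (median 2). No HH library had H3K27ac at Ctss. The summed H3K4me3 width over the markers was 36.2 to 48.7 kb in HH and 30.5 to 50.8 kb in HHC, against 8.29 to 8.49 kb in CC_l and 6.6 to 13.7 kb in CCC. For H3K27ac the markers with a peak numbered 8 to 15 in HH and 7 to 19 in HHC, against 3 to 5 in CC_l and 2 to 7 in CCC, and their summed width was 15.6 to 56.7 kb in HHC and 2.36 to 9.44 kb in CCC. Each marker had an H3K4me3 peak in at least 1 library, and Itgam had no H3K27ac peak in any. Lymphocyte markers with H3K4me3 numbered 9 to 10 of 10 in HHC and 1 in each CCC library. Endothelial markers with H3K4me3 numbered 8 of 8 in each HH library and 4 to 6 in CC_l, and 5 to 7 in HHC and 3 in each CCC library. The part of these cell markers in the Ctss result was not tested. With groups taken from the treatment field, the H3K4me3 difference at Ctss was −1630 bp for HH against CC_l and 1466 bp for HHC against CCC (adjusted p = 1 and 0.71), so the sign of the first turns with the label used.

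**Figure D2:**
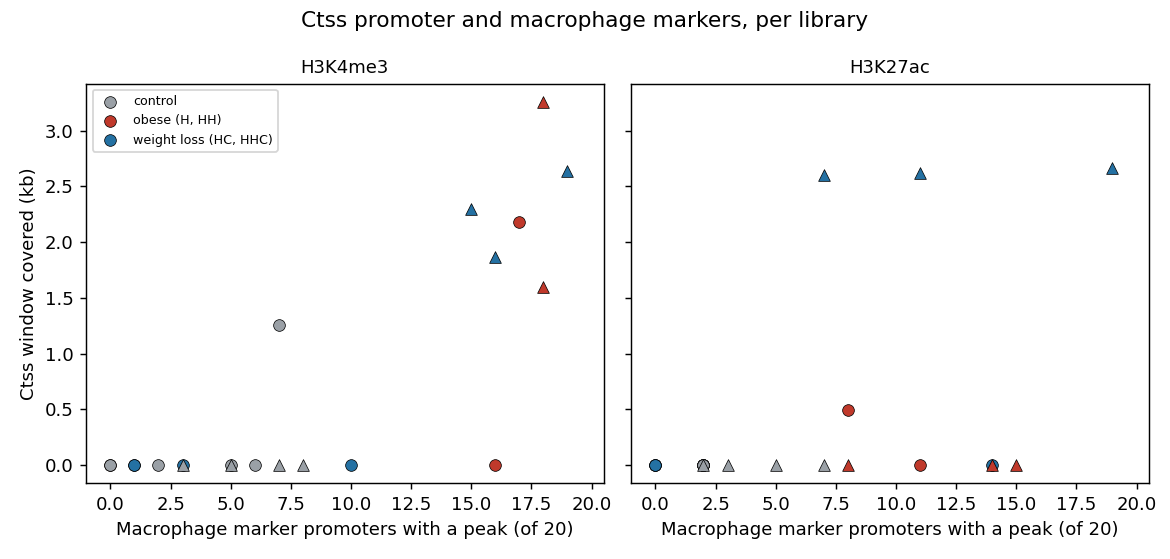
Each point is a library: the horizontal axis gives how many of 20 macrophage marker promoters carried a peak of the same mark, and the vertical axis the covered part of the Ctss window in kb; circles are the 12-week and triangles the 25-week cohort. All 3 HHC libraries have Ctss peaks of both marks, and 3 of the 4 H3K27ac libraries with 14 or more markers have 0 bp at Ctss.

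Gaa encodes acid alpha-glucosidase, which digests glycogen inside the lysosome. Its H3K4me3 width was 1841, 2196 and 2048 bp in C and 0 bp in each of the 3 H libraries. It was 0, 1016 and 2030 bp in CC_s and 0, 0 and 870 bp in HC. In the 25-week cohort each library had a peak, of 1434 to 3345 bp, and diet and control overlapped. C and H thus did not overlap, and H was lower by 2028 bp (SE 492, adjusted p = 0.0143, limma). Gaa was the only lysosomal promoter lost in H for H3K4me3 (peak in all C and no H libraries), where 1.71% of all promoters were gained or lost.

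The H group had narrower H3K4me3 at nearly all lysosomal promoters, as at promoters at large. In H against C, 5 of 42 tested lysosomal promoters were called, all lower (Acp5, Ctsf, Gaa, Psap and Smpd1), where 15.5% of all promoters were called. The median difference was −757 bp over the lysosomal promoters and −788 bp over all. Ctsf, a cathepsin, fell from 2072, 2292 and 1938 bp in C to 857, 485 and 0 bp in H (−1653 bp, SE 328, adjusted p = 0.00635). With widths scaled to the library mean the call at Gaa held (−1923 bp, adjusted p = 0.0391) and that at Ctsf missed the threshold (−1423 bp, adjusted p = 0.056), while Smpd1 turned to 210 bp (adjusted p = 0.926). The library with the fewest peaks is in the H group. Markers of cell types moved with the H group: H3K4me3 covered 31.97 to 41.94 kb of the 12 adipocyte marker promoters in H and 55.9 to 58.3 kb in C, and it was present at 16, 17 and 0 of the 20 macrophage marker promoters in the H replicates and at 5 to 7 in C. Their part in the H differences, Gaa included, was not tested. Leaving out a library in turn gave 1 to 7 calls, the fewest without C replicate 2, and of the 5 genes Ctsf alone was called each time.

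H3K27ac showed the same shift in H. The median difference from C was −1060 bp over 41 lysosomal promoters and −665 bp over all, and 2 were called, both lower (Acp5 and Ctsc), where 2.47% of all were called. Leaving out a library in turn gave 0 to 12 calls, 0 without C replicate 1 and 12 without CCC replicate 1, and scaling to the library mean gave 0. H3K27ac covered 18.7 to 36.3 kb of the adipocyte marker promoters in H and 55.3 to 60.6 kb in C, and was present at 0 to 11 of the macrophage markers in H and at 2 in C, and their part was not tested. Acp5 encodes tartrate-resistant acid phosphatase, a marker of osteoclasts and of some macrophages. Its 5 start sites give a window of 9114 bp, of which H3K27ac covered 8591, 8499 and 4809 bp in C and 779, 0 and 848 bp in H. It covered 9085 bp in both CC_l libraries and 2393, 6331 and 7867 bp in HH. Obese libraries lay below their controls in both cohorts, without overlap. Over both cohorts obese was lower by 5156 bp (SE 998, adjusted p = 0.0294, limma), the only call among 41 lysosomal promoters where 0.316% of all promoters were called.

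After weight loss H3K27ac at Acp5 was below control in the 12-week cohort and overlapped with it in the 25-week cohort, and the difference between cohorts was not called. It was 1939, 2402 and 1091 bp in HC against 5643 and 7023 bp in CC_s, without overlap and with a difference of −4522 bp (SE 1488) that was not called (adjusted p = 1). It was 9114, 8169 and 6360 bp in HHC against 9114 and 4969 bp in CCC, which overlap. The obese call at Acp5 missed the threshold when any of 8 libraries was left out, with adjusted p up to 0.163. H3K4me3 at Acp5 was 4491, 3911 and 4000 bp in C and 1613, 1688 and 901 bp in H (adjusted p = 0.0484), and 2180 and 7366 bp in CC_l and 6342 and 6220 bp in HH. The call in H was lost in 15 of 21 fits with a library left out and with scaled widths (adjusted p = 0.206, limma). In HHC, H3K4me3 covered 6194, 7147 and 3895 bp, below the 9106 and 7981 bp in CCC, which was not called. HC (1949, 1269 and 806 bp) overlapped CC_s (1620, 2650 and 3293 bp). The treatment field of CCC replicate 3 names another group.

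Presence gave 2 further changes in H. Lamp2, a membrane protein needed for autophagosome fusion and chaperone-mediated autophagy, lost H3K27ac: 1301, 2180 and 579 bp in C and 0 bp in each H library, where 2.08% of all promoters were gained or lost. HC libraries had no H3K27ac at Lamp2 either, but neither did CC_s replicate 1. Lipa encodes lysosomal acid lipase, which releases cholesterol and fatty acids from lipids in the lysosome. It gained H3K4me1 in H, with 334, 2345 and 2207 bp against 0 bp in each C library, where 0.911% of all promoters were gained or lost. The limma fit called neither change (adjusted p = 0.194 and 1).

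**Figure D3:**
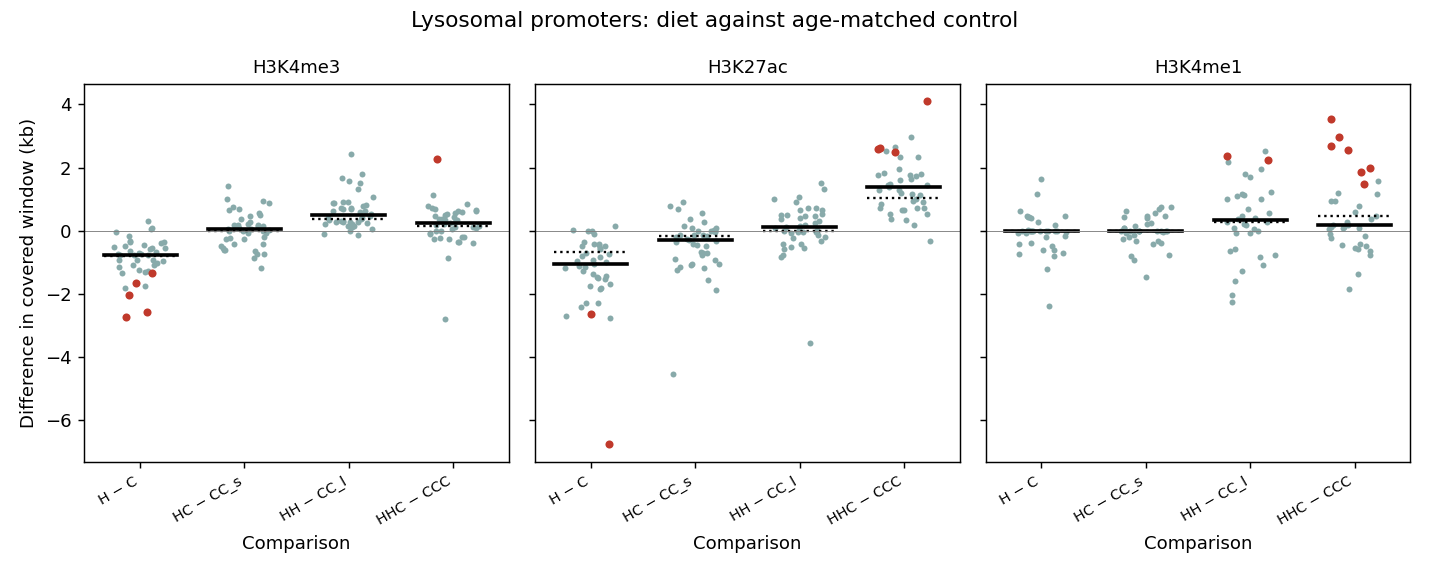
Each point is a lysosomal promoter and its height the mean covered width in the diet group minus that in the age-matched control, in kb, for each of 4 comparisons and 3 marks; red points are called by limma, solid bars are medians of the lysosomal promoters and dotted bars medians of all promoters tested. The solid and dotted bars lie close together in most comparisons, below 0 for H3K4me3 in H against C and above 0 for H3K27ac in HHC against CCC.

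The mean obese comparison over both cohorts called few promoters. For H3K4me3 none of 42 was called (limma, 4 at an unadjusted p below 0.05, 0 by the exact permutation test), where 0.562% of all were, with a median of −196 bp for the lysosomal genes and −215 bp for all. For H3K4me1 none of 36 was called (limma, 9 at an unadjusted p below 0.05, 2 by the exact permutation test), where 0.382% of all were, with medians of 151 and 156 bp. In HH against CC_l alone, H3K4me3 gave no call among 42 (2 at an unadjusted p below 0.05, 1.32% of all called) and H3K27ac none among 41 (2 at an unadjusted p below 0.05, 0.166% of all called). H3K4me1 gave 2 calls of 36, both higher, where 2.85% of all were called. They were Acp2, a lysosomal acid phosphatase, with 0 bp in both CC_l libraries and 1021, 3314 and 2349 bp in HH, and Gusb, beta-glucuronidase, with 0 and 1074 bp in CC_l and 2795, 2825 and 3078 bp in HH. In the older groups Acp2 overlapped between diets: it was 2669 and 1760 bp in CCC controls and 1473, 1909 and 1664 bp in HHC. The call at Acp2 was lost without any of 3 libraries (adjusted p up to 0.131) and that at Gusb without 1 (adjusted p = 0.0977), and leaving out a library in turn gave 0 to 5 calls and scaling to the library mean 0. In H against C none of 36 was called for H3K4me1 (limma, 1 at an unadjusted p below 0.05, 0.0% of all called).

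Presence changed in HH at Ctss for H3K4me3, as above (1.8% of all promoters gained or lost), and at Acp2 for H3K4me1 (2.7% of all), and at no lysosomal promoter for H3K27ac (0.851% of all).

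After weight loss most of the lysosomal promoters called over both cohorts were called for H3K4me1, a mark with many calls over all promoters too. They were 5 promoters, each wider in each HHC library than in any control library. Over both cohorts WL was called higher than control at Ctsa, Ctsd, Gusb, Lgmn and Sgsh, 5 of 36 tested, where 6.01% of all promoters were called. The median over the 36 was 69.8 bp and over all promoters 250 bp, and 21 of the 36 differences were positive. In HHC against CCC the same 5 and Ctsk and Gaa were called, 7 of 36, all higher, where 15.2% of all were called. The median there was 183 bp over the 36 and 458.5 bp over all promoters. Ctsk had H3K4me1 in 3 libraries, HH replicate 3 and HHC replicates 1 and 2. It met the filter of 3 libraries only through HHC, where it is high. In HC against CC_s none was called (limma, 0 at an unadjusted p below 0.05, 0.0% of all called). The HHC calls at the 5 genes held without each of the 22 libraries in turn, whereas Ctsk lost its call in 18 of these fits and Gaa in 9 (adjusted p up to 0.143 and 0.433).

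Ctsa encodes cathepsin A, which also protects beta-galactosidase and neuraminidase in a complex. It had no H3K4me1 peak in any library of the 12-week cohort, in CC_l or in CCC. HH had 1905, 1786 and 0 bp and HHC 2410, 2325 and 3312 bp. Presence was thus gained in HHC, and the mean WL difference was 1341 bp (SE 313, adjusted p = 0.0138, and 0.0174 without the filter), all of it from HHC against CCC (2682 bp, adjusted p = 0.000531). Its window is shared with the start of Neurl2.

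Sgsh encodes sulfamidase, which degrades heparan sulfate. Its H3K4me1 width was 3578, 1659 and 3652 bp in HHC and 0 bp in both CCC libraries. Outside HHC it had a peak in HC replicate 3 (478 bp) and HH replicate 1 (591 bp) alone. WL exceeded control by 1561 bp (SE 305, adjusted p = 0.00506, and 0.00603 without the filter). The exact permutation test gave p = 0.1 before adjustment. Ctsa and Sgsh both met the filter of 3 libraries with a peak only through HHC, where they are high. The window is shared with Slc26a11, and in HHC replicates 1 and 3 it also held H3K27me3 (1084 and 1542 bp).

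Lgmn encodes legumain, an asparaginyl endopeptidase that also activates cathepsins. HHC had 2769, 2675 and 5173 bp of H3K4me1 and CCC none, HH had 2443, 5541 and 3061 bp and CC_l 1126 and 1154 bp. In the 12-week cohort it was present in H replicate 1 (584 bp) and HC replicate 3 (633 bp) alone. Diet exceeded control without overlap in both pairs of the 25-week cohort. The mean WL difference was 1875 bp (SE 492, adjusted p = 0.0263), and HH against CC_l was not called (2542 bp, adjusted p = 0.0649).

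Ctsd encodes cathepsin D, the main aspartic protease of the lysosome. Its H3K4me1 width was 4182, 3804 and 4182 bp in HHC, where 4182 bp is the whole window, and 1127 and 1837 bp in CCC. HH had 4182, 4182 and 3195 bp and CC_l 2667 and 1611 bp. The 12-week cohort had 0 to 1402 bp, without order by diet. WL exceeded control by 1333 bp (SE 372, adjusted p = 0.0356). Gusb, with the HH values above, had 3366, 4107 and 4004 bp in HHC and 2028 and 1656 bp in CCC, and HC had 931, 0 and 526 bp against 0 bp in each CC_s library (WL difference 1235 bp, SE 309, adjusted p = 0.0207).

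The WL calls over both cohorts held at Ctsa and Sgsh without each of the 22 libraries in turn. The call at Ctsd was lost without any of 7 libraries, CCC replicate 1 and each CC_s and HC library (adjusted p up to 0.112). That at Lgmn was lost without any of 6, both CCC libraries, each CC_s library and HC replicate 3 (adjusted p up to 0.0752), and that at Gusb without any of 4, CCC replicate 3, CC_s replicate 2 and HC replicates 1 and 3 (adjusted p up to 0.0569). Other settings ranked the genes otherwise, and each of the 5 kept its WL call in 5 of 9. With equal peak numbers Ctsa lost its call (552 bp, adjusted p = 0.62, limma). Ctsd and Gusb kept theirs (adjusted p = 0.014 and 0.0161). With peaks at or above each library's median signal Ctsa also lost its call (adjusted p = 0.561), and Ctsd and Gusb did not.

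**Figure D4:**
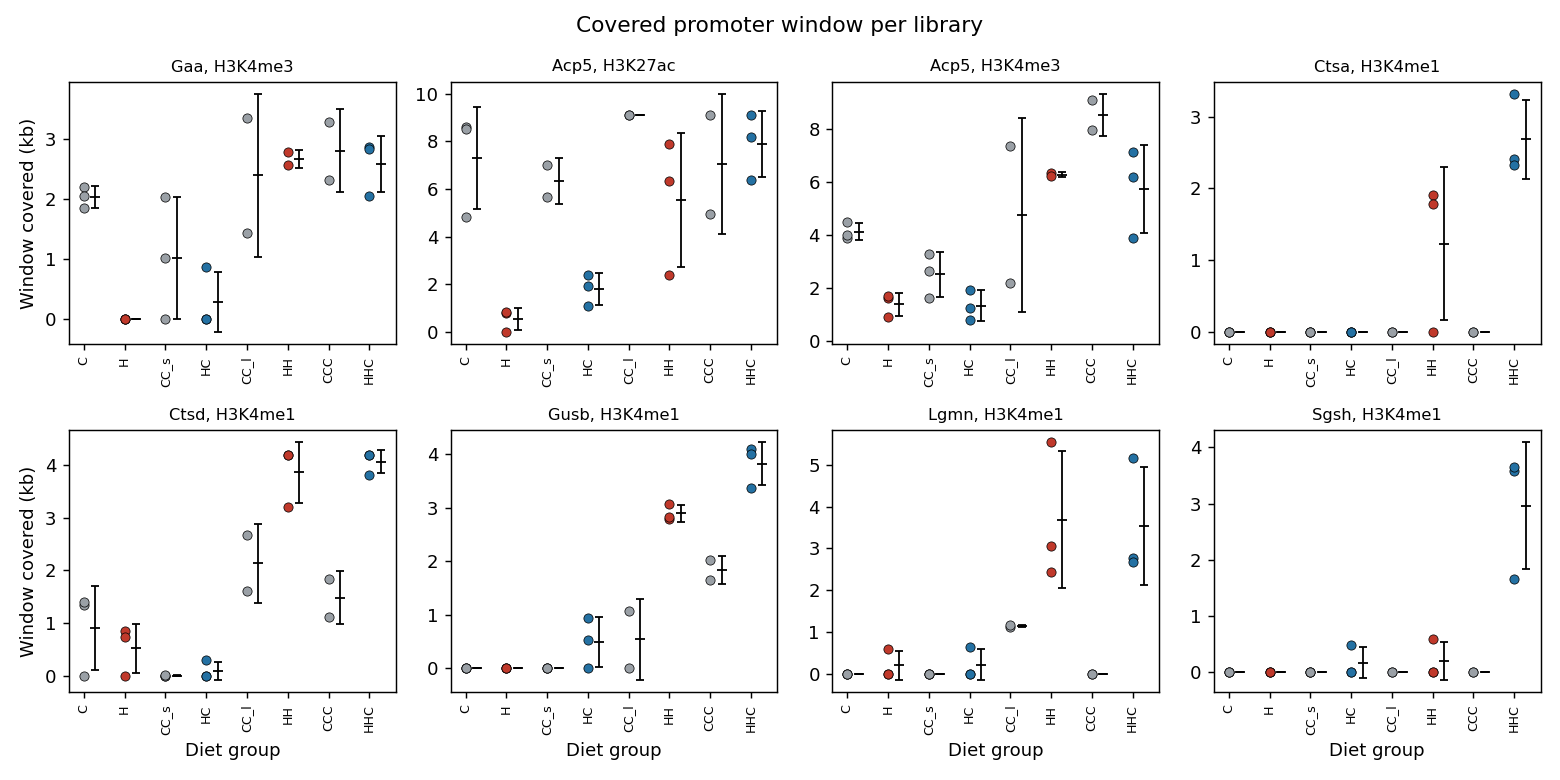
Covered promoter width in kb in each library (points) by diet group for Gaa, Acp5, Ctsa, Ctsd, Gusb, Lgmn and Sgsh, with the mark in each title and the bar giving the group mean ± SD; grey is control, red obese and blue weight loss. The 3 H libraries lie at 0 for Gaa H3K4me3, and the 3 HHC libraries lie above both CCC libraries in all 5 H3K4me1 panels.

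Of these 5 promoters, 4 hold CACGTG in the 250 bp shown above and Gusb does not. For Ctsa and Lgmn this holds for the promoter shown and not for the other RefSeq promoter. The other members with the motif that could be tested ran from −420 bp at Ctsl to 926 bp at Gaa in WL (adjusted p = 0.632 and 0.179), and Gla and Ctsf had too few H3K4me1 peaks to test. The 3 HHC libraries had H3K4me1 at 5 to 9 of 20 macrophage markers (summed width 5.18 to 22.1 kb) and CCC at 1 to 4 (1.96 to 6.58 kb). Adgre1, Fcgr1, Mrc1, C1qa and C1qc had no H3K4me1 peak in any library. Lymphocyte markers with H3K4me1 numbered 1 to 8 of 10 in HHC and 0 to 1 in CCC. All H3K4me1 peaks together covered 101 to 133 Mb in HHC and 71.1 to 122 Mb in CCC. The part of these in the result was not tested. HC replicate 3, HH replicate 1 and HHC replicate 3 had H3K4me1 at 3, 5 and 7 of 12 adipocyte markers, and the same replicates had the fewest markers for H3K27ac. CC_s replicate 1, with 6, and H replicate 1, with 7, were kept. Without HC replicate 3, HH replicate 1 and HHC replicate 3, a choice made after seeing the data, HHC against CCC stayed called at all 5. Ctsd was then not called in WL over both cohorts (adjusted p = 0.0619). The HHC differences were then 2368 bp at Ctsa, 2619 bp at Sgsh, 2722 bp at Lgmn, 2511 bp at Ctsd and 1895 bp at Gusb. With widths scaled to the library mean, 1 lysosomal promoter was called in HHC against CCC, Ctsa (1185 bp, adjusted p = 0.0241, limma). The calls at Sgsh (1325 bp, adjusted p = 0.0793), Lgmn, Ctsd and Gusb were lost, and none of the 5 was called in the mean over cohorts. With equal peak numbers, 3 lysosomal promoters were called in HHC against CCC.

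For the other active marks WL called less. H3K4me3 gave no call over both cohorts among 42 promoters (limma, 2 at an unadjusted p below 0.05, 2 by the exact permutation test), where 2.26% of all were called, with medians of 226 bp for the lysosomal genes and 91.1 bp for all. In HHC against CCC it gave 1 call, Ctss (3.82% of all called), and in HC against CC_s none (1 at an unadjusted p below 0.05, 0.0% of all called). H3K27ac gave 1 call among 41 over both cohorts, Ctss (0.0553% of all called), and none in HC against CC_s (2 at an unadjusted p below 0.05, 0.0% of all called). In HHC against CCC, H3K27ac was higher at 40 of 41 lysosomal promoters, against 89.6% of all, with medians of 1379 and 1037 bp, and 4 were called (Ctss, Gaa, Idua and Man2b1), where 6.6% of all were. Idua, alpha-L-iduronidase, had 5059, 6965 and 7405 bp in HHC and 4720 and 0 bp in CCC. The 0 is from CCC replicate 3, the library with few peaks. Scaled to the library mean, 0 of the 41 were called, and without CCC replicate 3 Ctss alone kept a call: Idua then differed by 1756 bp (adjusted p = 0.63), Gaa by 1827 bp (adjusted p = 0.476) and Man2b1, lysosomal alpha-mannosidase, by 1512 bp (adjusted p = 0.597).

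Presence changes after weight loss were few. In HC against CC_s no lysosomal promoter was gained or lost, for H3K4me3 (0.339% of all promoters), H3K27ac (0.796%) or H3K4me1 (0.316%). In HHC against CCC, Ctss was gained for H3K4me3 (1.76% of all gained or lost) and for H3K27ac (2.38%), and Ctsa, Lgmn and Sgsh were gained for H3K4me1 (4.47%). None was lost.

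The effect of WL was called different between cohorts at 2 promoters. The H3K4me1 difference in the 25-week cohort exceeded that in the 12-week cohort by 2804 bp at Sgsh (SE 610, adjusted p = 0.0146) and by 2682 bp at Ctsa (SE 625, adjusted p = 0.0189), 2 of 36 tested where 3.77% of all promoters were called. Both met the filter of 3 libraries with a peak only through HHC, the group where they are high. Without the filter the adjusted p was 0.0162 at Sgsh and 0.0227 at Ctsa (limma). For the obese effect on H3K4me1 none of 36 differed (limma, 5 at an unadjusted p below 0.05, 0.0% of all called). For H3K4me3 none of 42 differed for the obese effect (17 at an unadjusted p below 0.05, 3.32% of all called) or the WL effect (1 at an unadjusted p below 0.05, 0.623% of all). For H3K27ac none of 41 differed for the obese effect (6 at an unadjusted p below 0.05, 0.0% of all called) or the WL effect (15 at an unadjusted p below 0.05, 0.0% of all). Diet length, age and library preparation cannot be told apart in these contrasts.

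Enhancer marks around the genes were measured as the percent of the gene body and 20 kb on either side, outside all promoter windows, that peaks covered. Over both cohorts distal H3K4me1 was called higher in WL at Ctsa, Hexa and Lgmn, 3 of 39 genes, where 9.22% of all genes were called. Around Lgmn it covered 32.2%, 14.4% and 35.2% in HHC and 0% and 1.84% in CCC, and HH (13.9%, 20.1% and 13.1%) also lay above CC_l (2.41% and 2.66%). Around Hexa, the alpha subunit of beta-hexosaminidase that degrades the ganglioside GM2, it covered 15.4%, 9.19% and 14.4% in HHC and 0% and 1.91% in CCC. Around Ctsa it covered 13.6%, 7.97% and 7.08% in HHC and 0% and 2.32% in CCC. HHC and CCC did not overlap at any of the 3 genes, and HC and CC_s values all lay at or below 4.21%. The WL differences were 13.4 percentage points at Lgmn (SE 2.86, adjusted p = 0.0102), 5.75 at Hexa (SE 1.31, adjusted p = 0.0134) and 5.21 at Ctsa (SE 1.25, adjusted p = 0.0166). At Ctsa the difference was 1.38 points with a flank of 5 kb (adjusted p = 0.433) and missed the threshold without CCC replicate 1 (adjusted p = 0.0646). Scaled to the library mean, none of the 3 was called (adjusted p = 0.1 at Lgmn, 0.158 at Hexa and 0.0657 at Ctsa).

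In HHC against CCC alone, distal H3K4me1 was called at 5 of 39 genes (Ctsa, Ctsd, Ctsz, Hexa and Lgmn, all higher), where 23.2% of all genes were called. Leaving out a library in turn gave 3 to 11, 3 without CCC replicate 3 and 11 without HHC replicate 2, and scaling to the library mean gave 0 (0.963% of all). Distal H3K27ac was called at 11 of 40 (Acp5, Atp6ap1, Cd63, Ctsa, Ctsd, Gusb, Lgmn, Man2b1, Npc1, Psap and Tfeb, all higher), where 21.8% of all were, and scaling to the library mean gave 0 (0.284% of all). The largest of these was at Ctsd, where the mean was 41.5% in HHC and 4.28% in CCC (difference 37.3 percentage points, SE 7.33, adjusted p = 0.0046). Without CCC replicate 3, 1 of the 40 was called, and Ctsd differed by 34.2 percentage points (adjusted p = 0.059). Over both cohorts distal H3K27ac gave no call in WL (limma, 11 of 40 at an unadjusted p below 0.05, 0.803% of all called) or in obese libraries (6 at an unadjusted p below 0.05, 0.696% of all called), and distal H3K4me1 none in obese libraries (9 of 39 at an unadjusted p below 0.05, 0.101% of all called). The WL effect on distal H3K4me1 differed between cohorts at Lgmn and Hexa, 2 of 39 where 3.41% of all genes were called, and that on distal H3K27ac at none of 40 (10 at an unadjusted p below 0.05, 0.156% of all called).

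The transcription factors of the family that controls lysosomal genes had no called promoter difference in any comparison. Tfeb had H3K4me3 in each library, with 2917, 3059 and 2779 bp in C, 1845, 1866 and 1975 bp in H, 4602 and 4629 bp in HH and 5190, 4856 and 3971 bp in HHC. CC_l had 2991 and 4592 bp and CCC 4096 and 3645 bp. H lay below C without overlap, and HHC overlapped CCC. HH lay above CC_l by a narrow gap, 4602 against 4592 bp, between libraries whose treatment field names another group. With groups from that field, HH (4592 and 3645 bp) and CC_l (2991 and 4629 bp) overlapped. For H3K4me3, H minus C was −1023 to −1808 bp over Tfeb, Tfe3 and Mitf, and HH minus CC_l was 631 to 824 bp. Promoters at large shifted the same way, with medians over all tested of −788 bp in H minus C and 369 bp in HH minus CC_l. The proton pump genes also gave no promoter call, with H3K4me3 differences of −1135 to −444 bp in H against C and 228 to 695 bp in HH against CC_l over the 3 genes tested, and Atp6v0d2 had too few peaks to test. Among the 6 membrane proteins and channels, such as Lamp1, Cd63, the lysosomal calcium channel gene Mcoln1 and the Batten disease gene Cln3, no promoter was called in any comparison, and Lamp2 changed in presence alone.

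H3K27me3 was scarce at lysosomal promoters. It was seen at 10 of the 43 genes, in 1 to 3 libraries each, and no promoter was gained or lost in H (2.9% of all promoters), HC (0.993%), HH (1.99%) or HHC (2.1%). Ctsh and Cd63 alone had peaks in the 3 libraries needed for the fit. Cd63, a tetraspanin of lysosomes and exosomes, had 1061 bp in CC_l replicate 1, 1974 bp in HH replicate 3 and 3287 bp in HHC replicate 1. Neither gene was called in obese libraries (limma, 0 at an unadjusted p below 0.05, 2.21% of all called) or in WL (0 at an unadjusted p below 0.05, 4.59% of all called). Of the 10 genes, 5 had a peak in HHC replicate 1, and none of the C and CC_s libraries had any.

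Another 71 lysosomal genes outside the list were read the same way. H3K4me3 was present in each library at 54 of them. In WL over both cohorts, H3K4me1 was called higher at 4 of 63 tested, Fuca1, Abca2, Dnase2a and Galns, and H3K4me3 at 1 of 69, Clcn7, where 6.01% and 2.26% of all promoters were called. Fuca1, alpha-L-fucosidase, had a mean H3K4me1 width of 4001 bp in HHC, which is a full window, and 0 bp in CCC (WL difference 2150 bp, SE 296, adjusted p = 0.00102). Clcn7, a lysosomal chloride-proton exchanger, had a mean H3K4me3 width of 4252 bp in HHC and 1619 bp in CCC (WL difference 1247 bp, SE 259, adjusted p = 0.0142). No other promoter of the 71 was called in the mean obese or WL comparisons of the 4 marks, and the next in order, Slc11a1, an iron transporter of phagocyte lysosomes, differed by 1345 bp in H3K4me3 in obese libraries (adjusted p = 0.0619). Calls at the 71 genes are given from the main fit alone, without the other settings. For H3K4me3, as at Clcn7, they also depend on the titles used for the groups.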

How the data were processed

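The authors aligned trimmed CUT&Tag reads to GRCm38 and called peaks in each library on its own with SEACR. Per the labels the tools were Trim Galore 0.6.6, Bowtie2 2.4.4, SAMtools 1.13, bedtools 2.30 and SEACR 1.3. The deposited signal values are unscaled coverage over a peak, are not comparable between libraries and were used only as ranks within a library. Read depth is unknown, so no counting intervals are given.

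Peaks of all 84 libraries were laid over promoter windows of 21851 protein-coding genes (GENCODE, GRCm38). Covered bp were fitted per mark with limma 3.58.1 (R 4.3.3) over all 8 diet groups, for genes with a peak in at least 3 libraries, with two-sided tests and Benjamini-Hochberg adjustment over all genes tested. Called means an adjusted p below 0.05. The obese and WL effects are means of the differences in the 2 cohorts. Gained or lost means a peak in all libraries of a group and none of the other, with no p. The rest was computed in Python 3.11.15 with pandas 2.3.3. The fit was tested on simulated data.

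Genes named by rule were members called, gained or lost, or lacking H3K4me3 in a library. Others, such as Psap, Smpd1, Ctsc, Idua, Man2b1, Hexa, Tfeb, Cd63 and Tfe3, were chosen after their values were seen. The members and lists were chosen with earlier results of these data known. P-values measure only the spread between these samples.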

Additional observations from a re-analysis of the deposited data

Results flagged for a closer look

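The H3K4me1 difference between WL and control was larger in the 25-week than in the 12-week cohort at the promoters of Sgsh, by 2804 bp, and Ctsa, by 2682 bp, by limma's test of the difference itself (adjusted p = 0.0146 and 0.0189). The call at Sgsh held without each of the 22 libraries in turn, and that at Ctsa was lost without any of 6 (adjusted p up to 0.0532). Of 9 other settings, the call at Sgsh held in 4 and that at Ctsa in 3. With equal peak numbers the adjusted p was 0.447 at Sgsh and 0.734 at Ctsa (limma). Both promoters met the filter of 3 libraries with a peak only through HHC, where they are high. Distal H3K4me1 differed in the same direction around Lgmn, by 25.9 percentage points, and Hexa, by 12.6 percentage points (adjusted p = 0.0227 and 0.0184), calls that were lost without any of 6 and 3 libraries (adjusted p up to 0.0779 and 0.07). Age, diet length and the area covered by all H3K4me1 peaks also differ between the cohorts, and their part was not tested.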

How the results depend on the processing

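Counts here are of lysosomal genes called, with the value as reported in parentheses. Scaled to the library mean, calls fell to 0 for promoter H3K4me1 in WL (5) and its cohort difference (2), for promoter H3K27ac in obese libraries (1) and WL (1), and for distal H3K4me1 in WL (3) and its cohort difference (2), while distal H3K4me1 in obese libraries rose to 2 (0) and distal H3K27ac in WL to 1 (0). The cause was not tested here or for the other settings. With full peak widths on a log2 scale, promoter H3K4me1 gave 1 in obese libraries (0), 3 in WL (5) and 0 for the WL cohort difference (2), and promoter H3K27ac 0 in WL (1). By signal percentile, promoter H3K4me1 gave 1 in obese libraries (0), 0 in WL (5) and 0 for the WL cohort difference (2), promoter H3K27ac 0 in obese libraries (1) and 0 in WL (1), and promoter H3K4me3 2 in obese libraries (0) and 1 in WL (0). With equal peak numbers, promoter H3K4me1 gave 3 in WL (5) and 1 for the obese cohort difference (0), promoter H3K27ac 0 in obese libraries (1) and 0 in WL (1), promoter H3K4me3 1 in WL (0), distal H3K27ac 2 in obese libraries (0), 2 in WL (0) and 1 for the WL cohort difference (0), and distal H3K4me1 0 in WL (3) and 0 for its cohort difference (2). With peaks at or above each library's median signal, promoter H3K4me1 gave 2 in obese libraries (0), 2 in WL (5) and 2 for the obese cohort difference (0), and promoter H3K27ac 0 in obese libraries (1) and 1 for the obese cohort difference (0). With windows of 500 bp either side, promoter H3K4me1 gave 2 in obese libraries (0) and 2 for the obese cohort difference (0), and promoter H3K27ac 0 in obese libraries (1) and 1 for the WL cohort difference (0). Without the filter on low presence, promoter H3K27ac gave 0 in obese libraries (1) and 1 for the WL cohort difference (0). A 5 kb flank gave distal H3K27ac 1 in obese libraries (0), 1 in WL (0) and 1 for the WL cohort difference (0), with a median WL difference of 4.00 points (2.24). The exact permutation test, which has 60 to 200 arrangements and a lowest adjusted p of 0.22 over all promoters, gave 0 for promoter H3K27ac in obese libraries (1) and WL (1) and for H3K4me1 in WL (5). With H3K4me3 groups from the treatment field, the obese cohort difference gave 1 (0).

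Chosen after seeing the data, leaving out together 3 libraries per mark, those with the fewest adipocyte markers for H3K4me3 and H3K27ac and, for H3K4me1, the same replicates as for H3K27ac, gave promoter H3K4me1 3 in obese libraries (0), 1 for the obese cohort difference (0) and 4 for the WL cohort difference (2), promoter H3K27ac 0 in obese libraries (1) and 1 for the WL cohort difference (0), promoter H3K4me3 5 for the obese cohort difference (0), distal H3K27ac 1 in obese libraries (0), 1 in WL (0) and 2 for the WL cohort difference (0), and distal H3K4me1 1 in obese libraries (0).

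Promoters gained or lost also moved. With equal peak numbers there were 2 for H3K27ac in HH (0) and 2 in HHC (1), 0 for H3K4me1 in H (1) and 3 in HH (1), and 0 for H3K4me3 in H (1), HH (1) and HHC (1). With peaks at or above the median signal there were 2 for H3K27ac in H (1), 1 in HC (0) and 2 in HHC (1), 0 for H3K4me1 in H (1) and 6 in HH (1), and 0 for H3K4me3 in H (1), HH (1) and HHC (1). With windows of 500 bp either side there were 2 for H3K27ac in H (1), and 3 for H3K4me1 in H (1) and 2 in HH (1). The treatment field gave 0 for H3K4me3 in HH (1) and HHC (1), and leaving out these 3 libraries gave 2 for H3K27ac in HC (0).

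Leaving out each library in turn, promoter H3K27ac gave 0 to 10 calls in WL and 0 to 30 for the WL cohort difference, both highest without CCC replicate 1, which leaves CCC replicate 3, with few peaks, alone in its group, and 0 to 3 in obese libraries. Its median WL difference ran from −137 bp without CCC replicate 3 to 1092 bp. Promoter H3K4me1 gave 2 to 6 calls in WL, 1 to 4 for the WL cohort difference and 0 to 1 in obese libraries, with a median WL difference of −21.9 to 370.5 bp. Promoter H3K4me3 gave 0 to 1 in WL and 0 to 4 for the obese cohort difference. Distal H3K27ac gave 0 to 2 in obese libraries, 0 to 11 in WL and 0 to 10 for the WL cohort difference, with a median WL difference of 1.505 to 4.34 points, and distal H3K4me1 0 to 2 in obese libraries, 3 to 9 in WL and 0 to 7 for the WL cohort difference, with the most calls in WL and for its cohort difference without HHC replicate 2 for both marks. Promoters gained or lost ran from 0 to 2 in HC and 1 to 18 in HHC for H3K27ac, 1 to 3 in H, 0 to 1 in HC, 1 to 4 in HH and 3 to 6 in HHC for H3K4me1, 1 to 2 in HH for H3K4me3, and 0 to 1 in H, 0 to 2 in HH and 0 to 1 in HHC for H3K27me3.

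Libraries with the same replicate number did not deviate together in every pair, with median correlations from −0.0683 to 0.1 by mark and cohort. Those with different numbers had medians from −0.0896 to 0.0233. In the 25-week cohort the same-number median was the higher one for H3K27ac, H3K27me3 and H3K4me1. In the 12-week cohort this held for H3K4me1 alone. Whether the numbers pair the samples cannot be told from this, and the main fit did not pair them. With the replicate block, promoter H3K27ac gave 0 calls in obese libraries (1), distal H3K27ac 2 in WL (0), distal H3K4me1 5 in WL (3) and promoter H3K27ac in H against C 0 (2). Groups of 2 or 3 libraries, windows shared with neighbours and unknown read depth limit all values.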
